A study of Mus musculus with 6 samples.

Results

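Gene expression in the interzone of Tgfbr2Prx1KO mutant mouse embryos was compared with that in the interdigital tissue of mutants of the same genotype. The interzone is the band of condensed cells between neighbouring skeletal elements where a joint will form, and the interdigital tissue is the mesenchyme between the digits. The comparison took 2 of the 6 arrays of the series, chosen by their titles, with 1 array for each tissue, and it was described across all genes. Of 19444 genes on the array, 16789 were well above background on both mutant arrays.

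All 6 arrays came from autopods, the hand and foot plates, of C57BL/6 embryos at E14.5. Per the labels, 2 control embryos and 2 Tgfbr2Prx1KO littermates were sectioned, and interzone, growth plate and interdigital cells were taken by laser capture. Tgfbr2Prx1KO stands by convention for deletion of Tgfbr2, the type II TGF-beta receptor gene, through a recombinase under the Prx1 promoter, which is active in limb mesenchyme and not in the epidermis, the blood, the endothelium or the muscle precursors that migrate into the limb. The groups used were mutant interzone, mutant interdigital tissue, control interzone and control interdigital tissue, with the 2 growth plate arrays as further levels. The captured RNA was amplified by PCR with the SuperAmp procedure, and no label tells which embryos stood behind an array. The descriptions of 5 samples name irradiated human blood, against their titles, organism and tissue labels, and the title of the mutant interdigital sample reads Tbr2Prx1KO where its genotype label reads Tgfbr2Prx1KO.

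TGF-beta ligands bind Tgfbr2, which recruits the type I receptor Tgfbr1, and the pair signals through Smad2 and Smad3. In the limb, the joint interzone is marked by the growth factor Gdf5 and by Wnt ligands and BMP antagonists, while the interdigital mesenchyme expresses BMPs and genes of retinoic acid synthesis before it regresses by cell death. Indian hedgehog from the growth plate acts on surrounding cells, where the receptor gene Ptch1 and the transcription factor gene Gli1 are transcribed in response.

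The mutant interzone array lay on slide 1 with the 3 control arrays, and the mutant interdigital array lay on slide 2, so slide and tissue cannot be told apart in the mutant pair. The control pair lay on slide 1. There being 1 array a side, differences have no check by replicates and are given without p-values. The share of spots well above background was 77.3% on the mutant interzone array and 87.0% on the mutant interdigital array, within a range of 72.3% to 88.3% over the series. Levels are processed signals on a log2 scale, set against the 75th percentile of the array, so a level of 0 is that percentile, and a difference is interzone minus interdigital tissue on that log2 scale. Over the probes printed 10 times, the SD of the log2 signal among the spots of a probe had a median of 0.07 on the mutant interzone array and 0.09 on the mutant interdigital array, which is the error within an array only.

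Different probes of a gene disagreed far more than repeated spots of a probe. Of 6541 genes whose brightest and second brightest probes were both well above background on both mutant arrays, 2189 differed at least 2-fold at the brightest probe. The second probe went the same way in 61.0% of these, was past 2-fold the same way in 36.9%, and was past 2-fold the other way in 20.0%. Across the 6541 genes the 2 probes' differences had a Pearson correlation of 0.17, given as a description because genes are not independent replicates. In the control pair the second probe went the same way for 62.4% of 1939 genes past 2-fold. The part that the PCR amplification had in this was not tested, and probe sequences were not examined. A difference of a single gene from a single probe is therefore weakly supported here, and where a gene named below has further probes on both arrays, their differences are given or counted.

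**Figure D1:**
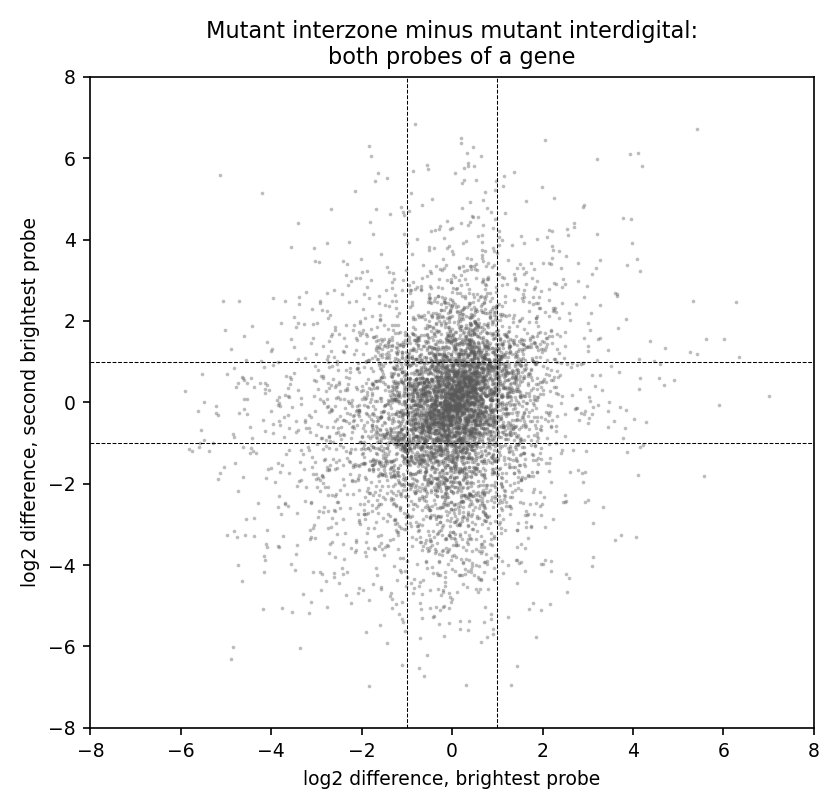
Log2 difference between mutant interzone and mutant interdigital tissue at the brightest probe of a gene (horizontal axis) and at its second brightest probe (vertical axis), with 1 point for each of 6541 genes and dashed lines at 2-fold. The cloud is wide in every direction, and the 2 probes' differences had a correlation of 0.17.

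Across all genes the mutant pair differed in both directions about equally often. Of 16789 genes, 3041 were at least 2-fold higher in interzone, which is 18.1%, and 3048 were at least 2-fold lower, which is 18.2%. The median difference was 0.12 and the SD across genes was 1.45. At 4-fold, 953 genes were higher and 1321 lower. With the normexp background correction the median difference was 0.43 and 79.1% of the genes past 2-fold were higher, with the deposited ratios 0.43 and 66.5%, and with quantile normalization 0.22 and 60.5%, against 49.9% here, so the balance of higher and lower genes rests on the scaling. List medians are therefore read against the median of all genes, and the counts under another scaling, 1 for each list, are given where it levels or turns the more frequent direction. Counts of list members past 2-fold in the mutant pair are read against the shares of all genes, 18.1% higher and 18.2% lower. A list near those shares is not set apart from other genes. In the control pair, 2627 of 17544 genes were at least 2-fold higher in interzone (15.0%) and 2581 were at least 2-fold lower (14.7%), with a median difference of 0.07. The mutant pair and the control pair share no array. Across the 16494 genes measured in both pairs their differences had a correlation of 0.05, again a description across genes. There were 549 genes at least 2-fold higher in interzone in both pairs and 662 lower in both, while 511 were higher in the mutant and lower in the control interzone and 529 the reverse. A further 159 genes were well above background in mutant interzone only and 1220 in mutant interdigital tissue only.

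**Figure D2:**
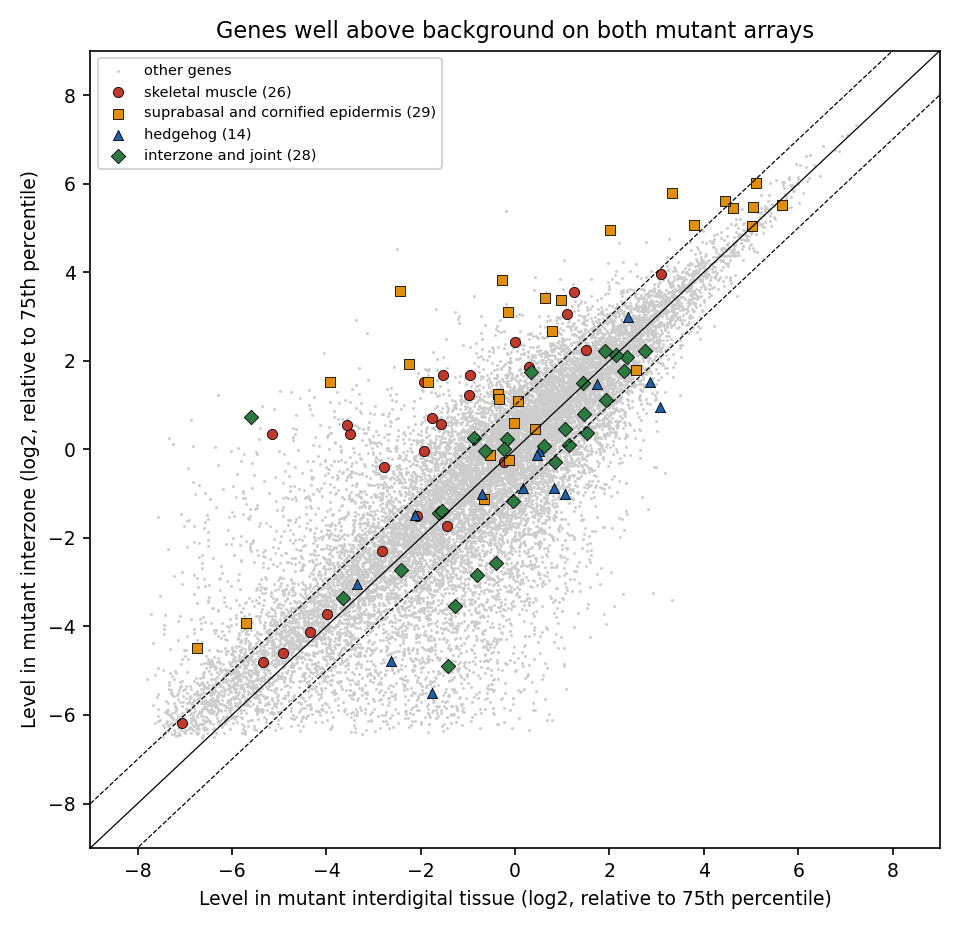
Level of each of 16789 genes on the mutant interdigital array (horizontal axis) and the mutant interzone array (vertical axis), log2 relative to the array's 75th percentile, with the line of equality and dashed lines at 2-fold. Skeletal muscle and cornified epidermis members lie mostly above the upper dashed line, and no hedgehog member lies above it.

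Tgfbr2 itself did not separate the tissues. Its level was 2.22 in mutant interzone and 1.91 in mutant interdigital tissue, beside 2.42 and 2.49 in the matching controls. A second probe gave a difference of 0.34 between the mutant tissues, beside 0.32 at the brightest. Whether either probe lies in the deleted part of the gene was not examined, so these levels do not check the genotype label.

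Joint markers were not higher in the mutant interzone as a group. Of the 28 measured interzone and joint genes, 3 were at least 2-fold higher in mutant interzone and 8 at least 2-fold lower, with a median of -0.41 against 0.12 for all genes, and with normexp 3 were higher and 3 lower. Between the control tissues 14 were higher and 3 lower, with a median of 1.09. Gdf5, the growth factor that marks the presumptive joint, was at 2.08 in mutant interzone and 2.37 in mutant interdigital tissue. In controls it was at 4.33 in interzone and 1.20 in interdigital tissue, so the control arrays were 8.76-fold apart and the mutant arrays within 1.22-fold of each other, with the interdigital array on top. The gene has 1 probe measured on both mutant arrays.

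Other genes of the joint region had the same arrangement on the 4 arrays. Sfrp2, a secreted Wnt antagonist, was at 1.5 and 1.45 in mutant interzone and interdigital tissue, beside 3.52 and 1.25 in controls. Osr2, a zinc finger factor of forming joints, was at 1.11 and 1.93, beside 2.83 and 0.35. Trps1, a GATA-type repressor expressed in joint condensations, was at 0.08 and 0.61, beside 2.91 and 0.08, and its second probe gave -2.60 in the mutant pair. In each of these 3 the control interzone array was the highest of the 4, and the mutant arrays differed less than 2-fold.

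Several joint genes were at least 2-fold lower in mutant interzone than in mutant interdigital tissue at their brightest probe. Htra1, a secreted serine protease, was at -4.90 and -1.42, which is 11.1-fold lower. Has2, the main hyaluronan synthase of the limb, was at -3.55 and -1.27, 4.86-fold lower, although its second probe gave 0.60. Lmx1b, a LIM homeobox factor of the dorsal limb, was at -2.56 and -0.40, 4.48-fold lower. All 3 were higher in interzone than in interdigital tissue in the control pair, by 2.39, 2.08 and 3.38. Gdf6, a close relative of Gdf5, was not well above background in mutant interzone, was at -4.62 in mutant interdigital tissue and was higher in control interzone by 4.90.

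Of the 3 higher joint genes, Barx1 had the largest difference. This homeobox factor of joint and mesenchymal condensations was at 0.73 in mutant interzone and -5.59 in mutant interdigital tissue, 80.1-fold higher. It was also higher in control interzone, at 1.36 against -4.10, and its control growth plate probe was not well above background. Wnt9a, a joint-inducing Wnt ligand, was at 0.26 and -0.87, 2.20-fold higher, with a second probe at 0.39. Ebf1, the third, was at 1.76 and 0.34, with a second probe at 0.61. The remaining fixed markers of the label were close: Erg, an ETS factor of articular cells, was at 1.77 and 2.31, and its second probe gave 0.41. Of the 7 defining markers of the interzone label fixed for this comparison, Wnt9a was the only one at least 2-fold higher in mutant interzone, so the label was not borne out by these markers relative to mutant interdigital tissue.

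**Figure D3:**
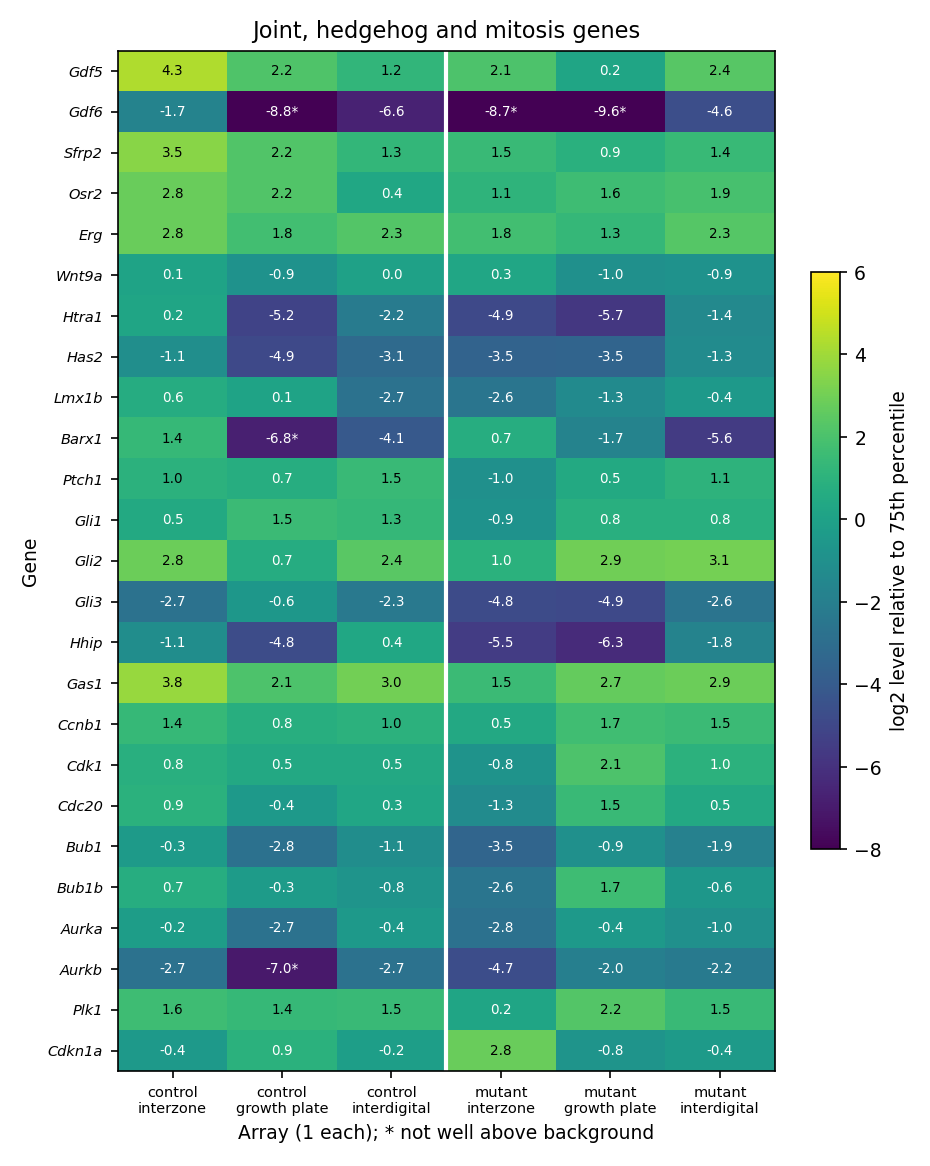
Levels of joint, hedgehog and mitosis genes on the 6 arrays, log2 relative to the array's 75th percentile, 1 array per column, with an asterisk where the gene was not well above background. Gdf5, Sfrp2 and Osr2 are highest in control interzone. Hhip, Gli2 and the mitosis genes are lower in mutant interzone than in mutant interdigital tissue at the probe shown. Aurkb and Bub1 turned direction with normexp, and a second probe of Cdk1 gave 6.05, the other way.

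Cartilage genes were near equal in the 2 mutant tissues. Of 27 measured growth plate cartilage genes, 7 were higher and 4 lower in mutant interzone, with a median of 0.22, and in the control pair 12 were higher and 3 lower, with a median of 0.92. Col2a1, the main cartilage collagen, was at 5.74 and 5.38 in mutant interzone and interdigital tissue, with a second probe at 0.50, and the chondrocyte master factor gene Sox9 at 0.61 and 1.15, with further probes from -0.49 to 0.38. The median level of the list was 0.48 in mutant interzone, 0.16 in mutant interdigital tissue and 0.35 in mutant growth plate, beside 3.99 in control growth plate. Thus the 3 mutant arrays were alike in cartilage level, while the control growth plate stood far above the other arrays.

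Individual cartilage genes went both ways. Matn1, which codes for a cartilage matrix filament protein, was at -4.79 in mutant interzone and -1.07 in mutant interdigital tissue, 13.2-fold lower. Acan, the large aggregating proteoglycan, was at 0.65 and 1.75, 2.14-fold lower. Sox5, a partner of Sox9, was 8.70-fold higher in mutant interzone at its brightest probe, at -0.44 against -3.56, but its second probe gave -0.11. Fgfr3, a growth plate FGF receptor, was at 0.57 and -1.01, 2.99-fold higher, and both of its other measured probes went the same way, by 1.20 to 1.53. Matn4 was at 2.80 and 1.51 and Chad, a leucine-rich cartilage protein, at 0.39 and -1.15.

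Of 10 measured prehypertrophic and hypertrophic genes, 2 were higher and 1 lower in mutant interzone, with a median of 0.46, and with the percentile over probes detected on all arrays 1 was higher and 1 lower. Ihh, the growth plate hedgehog ligand, was at -1.0 and -0.70 with a second probe at 0.13, and Col10a1, the collagen of hypertrophic cartilage, at -0.04 and -0.74, each within 2-fold. Spp1, the mineral-binding protein osteopontin, was at -0.19 and -2.69, 5.64-fold higher. Ibsp, a bone sialoprotein, was at 1.09 in mutant interzone and not well above background in mutant interdigital tissue, at least 472-fold higher. Neither was at least 2-fold higher in control interzone. Alpl, the alkaline phosphatase of mineralizing cells, was seen in mutant interdigital tissue at -1.38 and was not well above background in mutant interzone.

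Osteoblast genes did not separate the tissues as a group, with 2 of 14 higher, 2 lower and a median of -0.20, and with normexp 3 higher and 2 lower. Among tendon and ligament genes 1 of 17 was higher and 2 were lower, with a median of -0.12, and with the deposited ratios 3 were higher and 2 lower. Scx, the tendon lineage factor, was at 0.56 and 0.55. Tnmd, a tendon membrane protein, was not well above background in mutant interzone and was at -3.56 in mutant interdigital tissue.

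Genes of interdigital mesenchyme did not favour either mutant tissue. Of 35 measured members, 5 were higher and 7 lower in mutant interzone, with a median of -0.37, but with normexp 8 were higher and 3 lower. Between the control tissues 8 were higher and 5 lower, with a median of 0.23. Of its defining markers, Msx1, Hoxd13 and Bmp4 differed less than 2-fold at the brightest probe. Msx1, a homeobox factor of distal limb mesenchyme, was at 0.05 and 0.08, with a second probe at -0.25. Bmp7, a ligand implicated in interdigital regression, was at 0.31 and 1.35, 2.06-fold lower, with a second probe at 0.58. Lhx9, a LIM homeobox factor of distal mesenchyme, was at -4.55 and -1.79, 6.80-fold lower, and its second probe gave -5.02, whereas normexp gave 0.01 at the brightest probe. Prdm1, a zinc finger repressor, was at -5.91 and -3.63, 4.87-fold lower, and with normexp its difference was 1.61. Aldh1a2, the enzyme that makes retinoic acid in the interdigit, was in the opposite direction, at -0.86 in mutant interzone and -2.60 in mutant interdigital tissue, 3.34-fold higher, whereas in controls it was at -3.56 and -2.12. Tbx3, a T-box repressor, was likewise higher in mutant interzone, at 0.11 against -1.84.

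In the retinoic acid list as a whole, 6 of 19 genes were higher and 3 lower in mutant interzone, with a median of 0.52. Stra6, the retinol uptake receptor, was at 0.30 and -1.33, 3.10-fold higher. Rdh10, which makes retinaldehyde, was lower at -1.52 against 0.05, and its second probe gave -1.08. Adh7, an alcohol dehydrogenase, was at -0.44 and -3.96, 11.5-fold higher, and was higher in control interzone by 4.98.

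BMP pathway genes were either within 2-fold or lower in mutant interzone. None of 23 measured members was at least 2-fold higher and 8 were lower, with a median of -0.26, and with normexp 3 were higher and 4 lower. Between the control tissues 1 was higher and 1 lower. Among the ligands, Bmp5 was at -4.50 and -2.27, 4.71-fold lower, with a second probe at -4.94 and a difference of 0.40 with normexp, and Bmp2 was at -2.90 and -1.36. Among the receptors, Acvr1 was at 0.23 and 1.71, 2.79-fold lower, and Bmpr1b, the receptor through which Gdf5 signals, was not well above background in mutant interzone and was at -1.07 in mutant interdigital tissue. Bmpr1b was at -1.53 and -0.95 in the control tissues. Smad1, a transducer of BMP signals, was 3.15-fold lower at its brightest probe, at -0.16 against 1.5, and at 0.35 at its second probe. Of the antagonists, Sostdc1 was at -2.26 and 1.1, 10.3-fold lower, whereas Nog and Grem1 differed by 0.40 and 0.15.

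Hedgehog genes had the lowest median of the 37 lists at the brightest probes. None of 14 measured members was at least 2-fold higher in mutant interzone and 7 were lower, with a median of -0.82 against 0.12 for all genes, and with normexp 1 was higher and 4 were lower. In the control pair none was higher and 2 were lower, with a median of -0.04. The response genes Ptch1 and Gli1 were at -1.0 against 1.06 (4.18-fold lower) and at -0.87 against 0.82 (3.23-fold lower). Gli2, the main activating factor, was at 0.96 and 3.07, 4.32-fold lower, and Gli3, whose product mostly represses, was at -4.79 and -2.63, a difference that normexp turned to 0.78. Hhip, a membrane protein that binds hedgehog ligand and is itself induced by it, was at -5.51 and -1.76, 13.5-fold lower, and its second probe gave -1.53. Gas1, a hedgehog co-receptor, was at 1.53 and 2.86.

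Second probes of the response gene Ptch1 and of Gli2 were closer to 0, at -0.19 and -0.55, each with the same sign as the brightest probe. Smo, the signal transducer, was within 2-fold at 3.0 and 2.39, while its 2 further probes gave -1.43 and -0.95, the other way. The median level of the list was -0.88 in mutant interzone and -0.95 in mutant growth plate, which lies on the other slide. It was 0.47 in mutant interdigital tissue and between -0.06 and 0.49 on the control arrays.

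Among TGF-beta ligands, receptors and Smads, 4 of 22 were higher and 3 lower in mutant interzone, with a median of 0.27, but with the percentile over probes detected on all arrays 3 were higher and 4 lower. Acvrl1, the type I receptor ALK1 of endothelial cells, was at 1.82 and -1.90, 13.2-fold higher, where the control tissues were at -5.53 and 0.20. Inhba, the activin beta A subunit, was at -5.27 and -0.22, 33.2-fold lower, where the control tissues were at 0.98 and -2.64. Tgfb3, a ligand of forming cartilage and joints, was at 1.15 and 1.09. Both Acvrl1 and Inhba thus had opposite orders in the 2 genotypes.

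Of 22 TGF-beta target genes, 2 were higher and 5 lower, with a median of -0.23, and with the deposited ratios 4 were higher and 4 lower. Eln, the elastic fibre protein, was at -0.52 in mutant interzone and 3.17 in mutant interdigital tissue, 12.9-fold lower, beside 4.0 and 4.27 in controls. Lox, which cross-links elastin and collagen, was at -0.40 and 1.55, beside 2.18 and 2.28. For both genes the mutant interdigital array was closer to the control arrays than the mutant interzone array was.

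In the list of small proteoglycans and matrix glycoproteins 3 of 27 were higher and 8 lower in mutant interzone, with a median of -0.36, and with normexp 4 were higher and 5 lower, while the control pair had 6 higher and 6 lower. Mfap4, a microfibril-associated protein, was at 0.65 and 2.66, 4.02-fold lower, Fbln5 was at -1.10 and 0.24 with a second probe at 0.73, and Aspn, an asporin that binds collagen and TGF-beta, was at -1.93 and 0.16. Omd, a keratan sulfate proteoglycan, was 9.47-fold lower, at -3.57 against -0.33, with a control difference of -3.85. Tnn, the tenascin of joint-flanking tissue, was not well above background in mutant interzone and was at -1.72 in mutant interdigital tissue. Collagens outside the cartilage list were nearly level, with 2 of 21 higher, 1 lower and a median of 0.07.

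Among matrix proteases and their inhibitors 3 of 27 were higher and 8 lower, with a median of -0.11, and with normexp 5 were higher and 5 lower. Ctsk, the collagen-degrading cathepsin K, was at -3.58 and 1.53, 34.6-fold lower, beside 0.70 and 2.59 in controls. Adamts4, an aggrecan-cleaving protease, was at -4.46 and -0.44. Adamts9 was 29.7-fold lower at its brightest probe, at -5.41 against -0.52, while its second probe gave 1.31, so the probes disagree in direction.

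The Wnt list had 3 of 33 measured genes higher and 6 lower in mutant interzone, with a median of -0.30, and with normexp 5 were higher and 4 lower. Beside these, 18.1% of all genes were higher and 18.2% lower. The receptor gene Fzd7 was at -3.36 and 0.42, 13.7-fold lower, and its second probe gave -2.75. Fzd2 was at -0.63 and 1.14, with a second probe at -1.44, so both probes of both receptors were lower. Wif1, a secreted Wnt inhibitor of the interzone and perichondrium, was at -2.87 and -0.05, 7.05-fold lower, and was higher in control interzone by 2.34. Lef1, a transcription factor of Wnt signalling, was at -0.73 and 0.64, and its further probes gave -0.72 and -0.42. Wnt7a, the dorsal ectoderm ligand, was at 0.93 and -1.24, 4.49-fold higher. Sfrp1 was not well above background at its brightest probe in mutant interzone, but a second probe gave a difference of 2.41.

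In the FGF list 4 of 20 genes were higher and 5 lower, with a median of -0.21, and with normexp 5 were higher and 3 lower. The shares over all genes were 18.1% higher and 18.2% lower. Fgf18, a ligand of perichondrium and joint, was at -3.76 and -1.28, 5.6-fold lower, and was higher in control interzone by 1.39. Fgfrl1, a receptor without a kinase domain, was at -4.25 and 1.59, 57.0-fold lower, beside 3.25 and 1.70 in controls. Etv5, an FGF target, was 11.7-fold lower at its brightest probe, at -4.42 against -0.87, with a second probe at -0.12. Dusp6, a feedback phosphatase, was at -0.68 and -1.79. Fgfr1 differed by 0.10, with further probes from -0.20 to 0.98, and Fgfr2 by -0.86, with further probes from -1.04 to -0.07.

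Notch genes were split. Of 16 members 3 were higher and 5 lower, with a median of -0.62, and with normexp 6 were higher and 3 lower. Among all genes 18.1% were higher and 18.2% lower. Hes1, a target repressor of Notch, was at -0.39 and 2.95, 10.1-fold lower, and Notch3 was at -2.21 and 0.08. The ligand gene Dll1 was at -5.01 and -2.17, and with normexp its difference was 0.39. Notch4, a receptor of endothelium, was at 1.30 and -3.77, 33.6-fold higher, Lfng, which glycosylates Notch receptors, was at 1.35 and -1.96, and the vascular target Heyl was at 2.34 and 0.49 with a second probe at 2.07. The 3 higher genes were all lower in control interzone, with differences of -2.12, -1.65 and -1.96.

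Posterior Hox genes, which set digit identity, were mostly within 2-fold at the brightest probe. None of 14 measured members was at least 2-fold higher and 2 were lower, with a median of -0.38, and with normexp 3 were higher and 2 lower. At the second brightest probe, measured for 5 members, 4 were at least 2-fold lower, with a median of -1.98. Hoxd13 was at 2.65 and 2.91, with a second probe at -1.27, beside 3.75 and 3.21 in controls, and Hoxd11 was at -2.90 and -0.37, 5.78-fold lower. Among other limb patterning factors 2 of 19 were higher and 7 lower, with a median of -0.75, but with normexp 4 were higher and 2 lower. Meis1, a factor of the proximal limb, was at -5.22 and -0.47, 27.0-fold lower, with a second probe at -3.32, and Meis2 was at 1.03 and 2.86, with a second probe at -6.96. Tbx18 was at -3.40 and -1.25, with a second probe at -1.56. Both probes of these 3 genes were past 2-fold the same way. Shox2, a proximal limb factor, was at 0.81 and -1.13.

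Guidance genes were lower more often than higher, with 4 of 27 higher, 9 lower and a median of -0.41, but with normexp 6 were higher and 5 lower. Epha7, an ephrin receptor of the distal limb, was at -3.27 and 2.29, 47.0-fold lower at its brightest probe, with a second probe at -0.68. Sema3e, a secreted repellent, was at -5.09 and -1.01, 16.8-fold lower, and its second probe gave -1.65. Sema3c was in the other direction at -0.61 and -3.16, and Sema3f was at 0.34 and -1.24 with a second probe at 1.44.

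Skeletal muscle genes were the list with the highest median, and they were higher in mutant interzone. Of 26 measured members 15 were at least 2-fold higher and none was lower, with a median of 1.91 against 0.12 for all genes. Between the control tissues 4 of 25 were higher and 7 lower, and the median was -0.45. The regulator gene Myog, which drives terminal muscle differentiation, was at 1.22 and -0.98, 4.60-fold higher. Myod1, the lineage factor upstream of it, was within 2-fold at 3.96 and 3.10. Of the contractile genes, Mylpf, a fast myosin light chain, was at 3.56 and 1.26, Actc1, the actin of embryonic muscle, at 3.04 and 1.11, and Myh3, the embryonic myosin heavy chain, at 1.68 and -1.52 with a second probe at 5.99.

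Further muscle genes had larger differences. Chrna1, the muscle acetylcholine receptor subunit, was at 0.35 and -5.14, 44.9-fold higher. Ttn, the giant sarcomere spring, was at 0.56 and -3.57, 17.5-fold higher, and its 4 further probes were all higher, by 0.33 to 5.32. Tnni1, a slow troponin, was at 0.35 and -3.49, 14.3-fold higher, with a second probe at 2.05. Tnnt1 was at 1.67 and -0.95, and Cdh15, the muscle cadherin, at -0.40 and -2.78. The median level of the muscle list was 0.35 in mutant interzone and between -1.93 and -0.98 on the other 5 arrays, 3 of which share its slide. In bulk samples fewer cells of a type and less RNA per cell cannot be told apart, and the part of muscle cells in the differences of other lists was not tested.

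The 250 bases before the RefSeq start site (GRCm38.p6) of 3 muscle genes are shown because these genes moved together. They had the largest differences among members with a promoter in a RefSeq table of promoters, and members on 1 chromosome were passed over. Each match to CAGCTG, an E-box form that MyoD-family factors bind, is in capitals. Other E-box forms were not searched or marked. The motif reads the same on both strands. Chrna1 lies at chr2:73580339-73580588 on the minus strand, Ttn at chr2:76982548-76982797 on the minus strand and Tnni1 at chr1:135799171-135799420 on the plus strand.
Chrna1: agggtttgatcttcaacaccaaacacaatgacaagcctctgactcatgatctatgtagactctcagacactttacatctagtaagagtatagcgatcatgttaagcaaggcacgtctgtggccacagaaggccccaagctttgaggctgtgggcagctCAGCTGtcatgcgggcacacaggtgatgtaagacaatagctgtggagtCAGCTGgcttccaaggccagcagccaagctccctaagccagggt
Ttn: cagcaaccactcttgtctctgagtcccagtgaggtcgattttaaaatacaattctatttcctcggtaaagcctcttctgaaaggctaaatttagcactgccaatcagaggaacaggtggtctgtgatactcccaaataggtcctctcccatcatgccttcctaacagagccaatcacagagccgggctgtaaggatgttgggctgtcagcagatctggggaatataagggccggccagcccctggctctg
Tnni1: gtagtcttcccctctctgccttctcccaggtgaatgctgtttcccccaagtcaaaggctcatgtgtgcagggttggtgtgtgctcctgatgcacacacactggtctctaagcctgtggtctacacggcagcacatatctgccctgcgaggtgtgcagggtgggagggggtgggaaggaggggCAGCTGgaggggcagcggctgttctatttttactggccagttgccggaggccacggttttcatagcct
Chrna1 held 2 matches, Tnni1 held 1 and Ttn held 0 in these windows. Of the 27 muscle members on the array 21 had a promoter in the table, and 9 of these (42.9%) held the motif, beside 12.8% of all 27025 promoters of the same length. A match is a description of letters and not a binding site.

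The epidermal lists divided by layer. Of 29 measured suprabasal and cornified genes, which are expressed as keratinocytes leave the basal layer, 18 were at least 2-fold higher in mutant interzone and none was lower, with a median of 1.48. Of 25 basal epidermis genes 3 were higher and 7 lower, with a median of -0.34, but with the deposited ratios 7 were higher and 4 lower. Krt9, the keratin of palm and sole skin, is in neither list and was 105-fold lower in mutant interzone. In the control pair 10 of 31 suprabasal genes were higher and 2 lower, and the median was 0.75. The Prx1 driver is not active in epidermis, so the deletion is not expected by design in epidermal cells. Which cells on each array gave these transcripts was not tested.

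Cornified envelope genes had the largest differences. Sprr3, a small proline-rich envelope protein, was at 3.58 in mutant interzone and -2.44 in mutant interdigital tissue, 65.1-fold higher. Ivl, the envelope scaffold involucrin, was at 1.53 and -3.93, 43.8-fold higher, and Sprr1a was at 1.93 and -2.25. Cnfn, the envelope protein cornifelin, was at 3.83 and -0.28, and Lor, loricrin, at 3.10 and -0.16. On the control interzone and interdigital arrays these 5 genes were all at or below -1.48. Casp14, the protease of cornification, was at 3.41 and 0.63.

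The early differentiation keratins were high on both mutant arrays and within 2-fold at the brightest probe. Krt10 was at 5.48 and 5.05, with a second probe at 0.26, and Krt1 at 5.45 and 4.62, with a second probe at 1.42, which is past 2-fold. In control interzone and interdigital tissue Krt10 was at -3.04 and -1.56 and Krt1 at -0.56 and -1.13. Both were high in control growth plate, Krt10 at 3.88 and Krt1 at 3.80. Krt5 and Krt14, the basal layer pair, were at 1.75 and 3.80 in mutant interzone and at 2.34 and 4.40 in mutant interdigital tissue. In the basal list Epcam, an epithelial adhesion molecule, was at -0.39 and 2.98, 10.4-fold lower. The laminin subunit gene Lamb3, whose product helps anchor basal cells to the basement membrane, was at -2.63 against 1.31, 15.4-fold lower. Its partner subunit gene Lama3 was at 1.44 and 1.78, with a second probe at 0.29. The simple epithelial keratins Krt8 and Krt18, which also mark the embryonic periderm, were higher in mutant interzone, at 1.81 against -0.29 and 2.06 against -0.12, and a second probe of Krt8 gave 4.07.

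Desmosome genes, which join keratinocytes, were also higher, with 7 of 14 at least 2-fold higher, 1 lower and a median of 1.0. Evpl and Ppl, the envelope plakins, were at 3.30 against 1.37 and at 3.93 against 2.11, and a second probe of each was higher too, by 2.31 and 2.78. Dsc1, a desmocollin of the upper layers, was at 0.92 and -4.34, 38.3-fold higher, with a second probe at 1.24. Dsp, the plakin common to all desmosomes, was at 4.71 and 4.20, while its 3 further probes were lower in mutant interzone, from -0.66 to -0.22. The median level of the suprabasal list was 1.87 in mutant interzone, 1.67 in mutant growth plate, -0.09 in mutant interdigital tissue and between -2.78 and 0.14 in the controls. The part of epidermal cells in the differences of other lists was not tested.

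**Figure D4:**
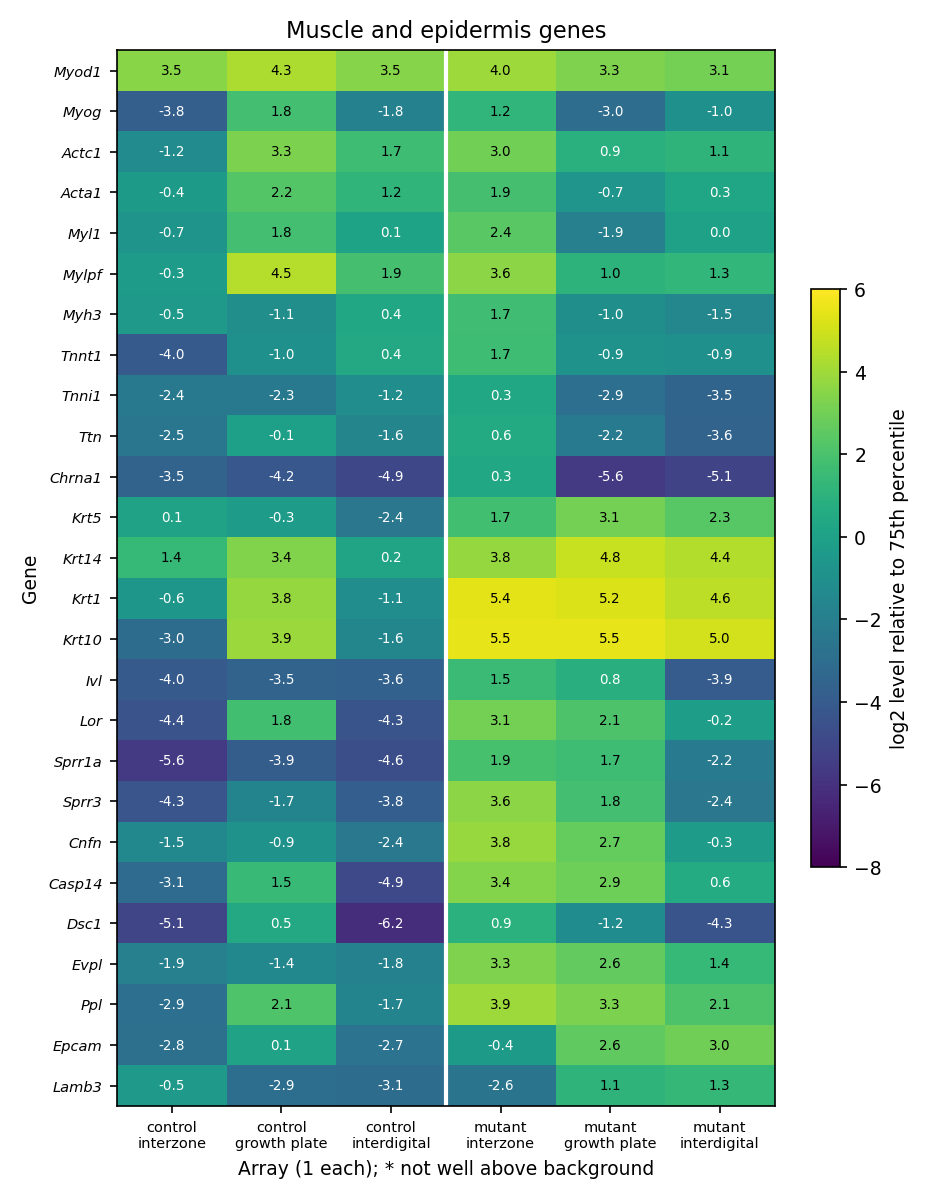
Levels of muscle and epidermis genes on the 6 arrays, log2 relative to the array's 75th percentile, 1 array per column, with an asterisk where the gene was not well above background. Muscle genes are highest in mutant interzone or control growth plate, and cornified envelope genes such as Ivl, Sprr3 and Cnfn are high in mutant interzone and mutant growth plate.

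The same stretch before the start site is shown for 3 suprabasal genes, with each match to TGANTCA, the site of AP-1 factors, in capitals. They had the largest differences among members with a promoter in the table, and members on 1 chromosome were passed over. The motif reads the same on both strands. Sprr3 lies at chr3:92458721-92458970, Ivl at chr3:92573736-92573985 and Sprr1a at chr3:92485882-92486131, each on the minus strand.
Sprr3: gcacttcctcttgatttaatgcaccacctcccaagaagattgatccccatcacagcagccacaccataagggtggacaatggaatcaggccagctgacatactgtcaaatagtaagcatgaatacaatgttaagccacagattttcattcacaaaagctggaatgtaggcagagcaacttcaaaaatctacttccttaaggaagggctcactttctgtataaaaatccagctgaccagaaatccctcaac
Ivl: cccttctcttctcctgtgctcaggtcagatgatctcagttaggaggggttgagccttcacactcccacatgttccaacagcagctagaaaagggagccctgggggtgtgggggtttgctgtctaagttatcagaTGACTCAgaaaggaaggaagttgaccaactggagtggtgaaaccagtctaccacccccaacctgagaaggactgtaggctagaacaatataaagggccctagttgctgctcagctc
Sprr1a: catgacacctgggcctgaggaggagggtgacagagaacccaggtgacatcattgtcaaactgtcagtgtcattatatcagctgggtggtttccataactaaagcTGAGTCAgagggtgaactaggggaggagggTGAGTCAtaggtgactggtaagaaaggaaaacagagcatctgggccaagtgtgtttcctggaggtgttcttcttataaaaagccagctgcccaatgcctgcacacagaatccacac
Sprr1a held 2 matches, Ivl held 1 and Sprr3 held 0. Of the 32 members on the array 26 had a promoter in the table, and 11 of these (42.3%) held the motif, beside 6.87% of all 27025 promoters.

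Endothelial genes did not move one way in the mutant pair, whereas they were low in control interzone. Of 19 measured members 4 were higher and 4 lower in mutant interzone, with a median of -0.39 (with normexp 5 higher and 4 lower), and in the control pair none was higher and 13 were lower, with a median of -2.37. Pecam1 was at -0.07 and 0.73 in the mutant tissues and at -1.14 and 2.11 in the control tissues. Emcn, a sialomucin of capillaries and veins, was at -4.34 and -0.40, 15.4-fold lower, with a control difference of -4.32. Sox17, an arterial transcription factor, was at 0.09 and -4.28, 20.6-fold higher, with 2 further probes at 1.5. Cldn5, an endothelial tight junction protein, was at -1.22 and 0.86.

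Macrophage genes had the same contrast between genotypes. In the mutant pair 4 of 20 were higher and 5 lower, with a median of 0.31 (with normexp 4 higher and 2 lower), and in the control pair 1 of 19 was higher and 12 were lower, with a median of -1.58. Tyrobp, a myeloid adaptor, was at 1.47 and 1.24 in the mutant tissues, beside -3.55 and 2.21 in controls. Adgre1, the macrophage marker F4/80, was at 0.15 and -2.08, 4.66-fold higher, and C1qa, a complement component of macrophages, was at -0.10 and -1.20. Spi1, the myeloid lineage factor, was at -4.55 and -2.75, and with normexp its difference was 0.98. Erythroid genes were near level, with 1 of 12 higher, none lower and a median of 0.37, and with the percentile over probes detected on all arrays 1 higher and 1 lower. Hba-a1, an adult globin, was at 6.84 and 6.52, with a second probe at 0.64. Nerve, Schwann cell and melanocyte genes had 2 of 17 higher and 5 lower, with a median of -0.10, and with normexp 6 higher and 1 lower. Sox10, the neural crest factor, was at -1.92 and 0.21 with a second probe at 3.06, so its direction depends on the probe.

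Cell cycle genes were lower more often than higher. Of 30 members 3 were higher and 10 lower in mutant interzone, with a median of -0.24, with normexp 4 were higher and 5 lower, and in the control pair 2 were higher and 2 lower. The 10 lower genes were Ccnb1, Ccne1, Cdk1, Cdc20, Bub1, Bub1b, Aurka, Aurkb, Plk1 and Top2a, of which all but Ccne1 act in mitosis or on mitotic chromosomes, a grouping made after their values were seen. Bub1b, a spindle checkpoint kinase, was at -2.56 and -0.60, 3.88-fold lower. Aurkb and Bub1 were 5.55-fold and 3.02-fold lower, and with normexp their differences were 0.52 and 0.16, the other way. Plk1 was at 0.21 and 1.49, and Cdc20, which activates the anaphase-promoting complex, at -1.26 and 0.47. Top2a was 2.14-fold lower at its brightest probe, and its 2 further probes gave -0.25 and 0.50. A second probe of Ccne1 gave -0.52. Ccnb1 was 2.09-fold lower, and both of its further probes were lower. Cdk1 was 3.48-fold lower at its brightest probe, while its second probe gave 6.05.

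Replication genes were in the same list. Mcm2, Mcm4 and Mcm7, subunits of the replicative helicase, differed by 0.01, -0.01 and 0.03 at their brightest probe, but a second probe of Mcm4 gave 2.72. Mcm5 was at 2.26 and -0.70. Cdkn1a, the cell cycle inhibitor p21, was at 2.78 in mutant interzone and -0.38 in mutant interdigital tissue, 8.97-fold higher. It was between -0.77 and 0.92 on the other 5 arrays, so the mutant interzone was the highest of the 6. Apoptosis genes had 2 of 23 higher and 5 lower, with a median of -0.13, and with normexp 4 were higher and 4 lower. Pmaip1, the BH3-only protein Noxa, was at 0.47 and -1.89, 5.11-fold higher.

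Chemokine transcripts were sparse, and 16 of 24 list members were measured in the mutant pair, with 4 higher, 4 lower and a median of 0.46, and with normexp 9 were higher and 3 lower. Ccl12, a ligand of the receptor Ccr2, was at -1.77 in mutant interzone and -6.60 in mutant interdigital tissue, 28.3-fold higher. It was not well above background in control interzone, was at -3.62 in control interdigital tissue and was at -0.82 in mutant growth plate. Cxcl14 was at 0.09 and 2.08, 3.98-fold lower, and Cx3cl1 at -1.94 and 0.45, 5.24-fold lower.

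Igf1 was at 3.59 in mutant interzone and 2.29 in mutant interdigital tissue, with a second probe at 0.72, and in controls it was at 1.31 and 3.92. In the IGF list 1 of 14 was higher and 2 were lower, with a median of -0.21, and with the deposited ratios 1 was higher and 1 lower. Glycolysis and hypoxia genes had 3 of 25 higher and 2 lower, with a median of -0.01 (with normexp 1 higher and 1 lower), immediate early and stress genes 4 of 18 higher and 3 lower, with a median of 0.34, and interferon response genes 2 of 16 higher and 1 lower, with a median of 0.12. Car9, a hypoxia-induced carbonic anhydrase, was at -5.28 and -1.0, 19.4-fold lower. Of 15 housekeeping genes 1 was higher and none lower, with a median of -0.04, but with the percentile over probes detected on all arrays none was higher and 1 was lower. Gapdh was at 4.85 and 4.89, with a second probe at -0.03. Of 5 sex-linked transcripts 3 were at least 2-fold higher in mutant interzone and none was lower, with a median of 1.03. The Y-linked genes Eif2s3y and Kdm5d were well above background on the 3 mutant arrays and on none of the controls, and Xist was between -6.67 and -5.56 on mutant arrays and between 3.02 and 4.14 on control arrays. These transcripts split the arrays by genotype, so genotype and sex cannot be told apart where the mutant pair is set beside the control pair.

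**Figure D5:**
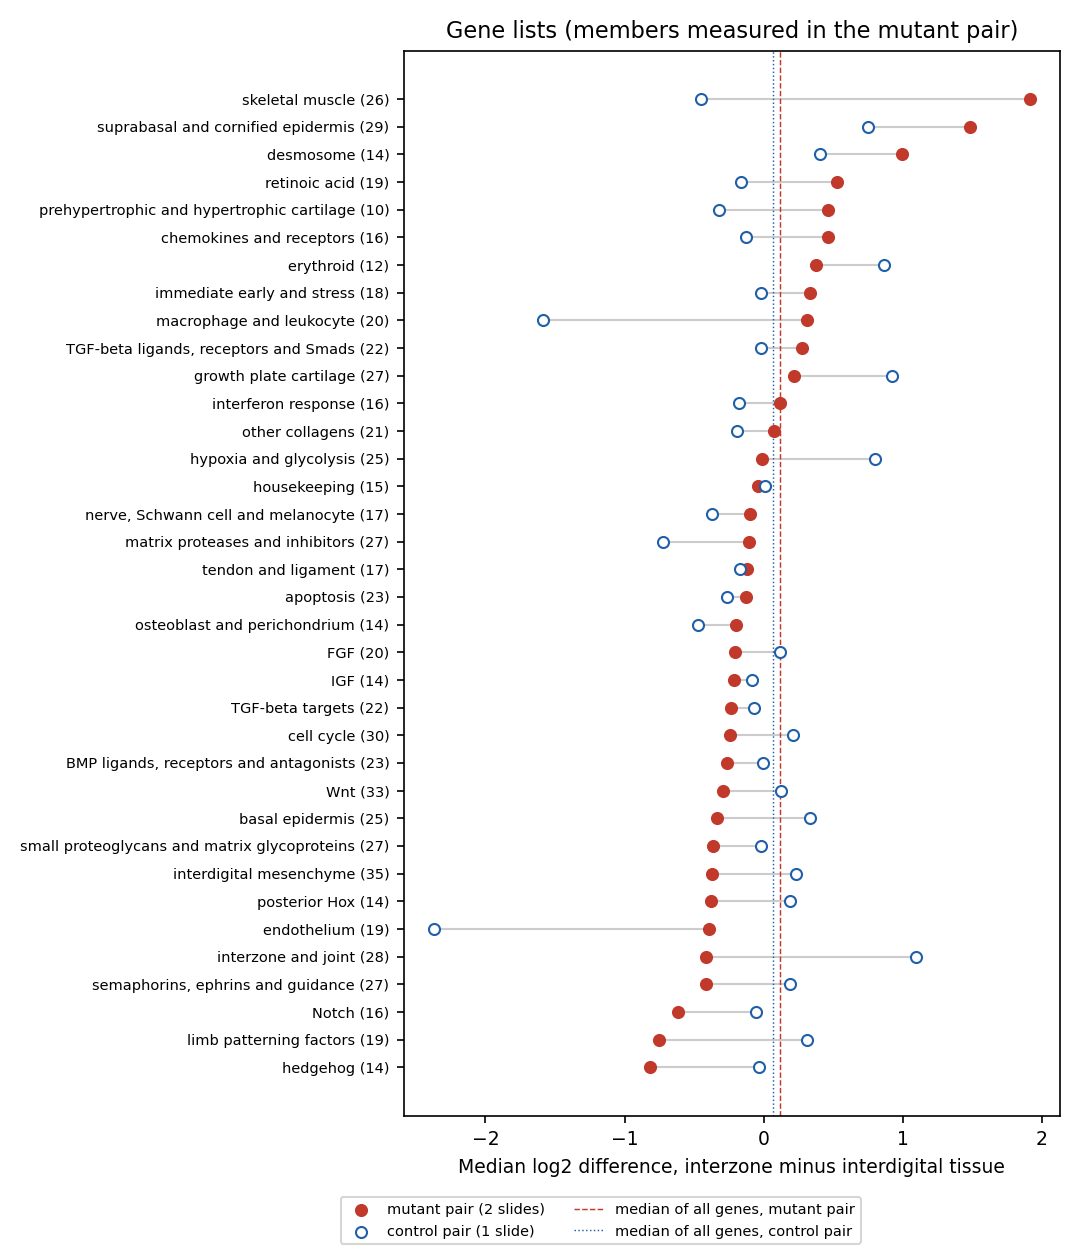
Median log2 difference, interzone minus interdigital tissue, of 36 gene lists in the mutant pair (filled) and the control pair (open), with the number of members measured in the mutant pair in brackets and lines at the medians of all genes. Skeletal muscle lies at 1.91 in the mutant pair and -0.45 in the control pair, and the interzone and joint list at -0.41 and 1.09.

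Among genes bright on at least the higher array and with all measured probes going the same way, the 12 with the largest difference upward ran from 78.2-fold to 193-fold. Fam3b, Upk3b, Ildr1, Ttc22 and Vmn1r40 were at -7.35 to -6.82 in mutant interdigital tissue. The lowest level well above background on that array was -7.79, so the sizes of these folds rest on signals near the floor. Fam3b, a secreted cytokine-like protein, was at 0.25 in mutant interzone and -7.35 in mutant interdigital tissue, 193-fold higher, and below -4 on the other 4 arrays. Ttc22 and Fcamr, a receptor for IgA and IgM, were 185-fold and 183-fold higher and low on the other 5 arrays. Thrb, a thyroid hormone receptor gene, was at 4.52 and -2.50, 130-fold higher, but its 2 further probes gave 0.15 and 1.52, and normexp gave -2.79. The local background around its spot on the mutant interzone array was 65256 units, above the spot's own mean signal of 38627 and against a median of 42.0 for that array. It was the only gene named here with a local background over 500 units on either mutant array. Upk3b, a uroplakin of mesothelium and urothelium, was 164-fold higher and was also at 1.06 in mutant growth plate. Chil1, a chitinase-like protein of cartilage and macrophages, was 84.6-fold higher and higher in control interzone by 4.22. Serpinb11 and Gsdma, a gasdermin of skin and gut epithelium, were 79.0-fold and 78.2-fold higher, and a second probe of Gsdma gave 2.46. Ildr1 and Clec2g were 91.3-fold and 81.7-fold higher, with a second probe of Clec2g at 1.11, and the list ends with Vmn1r40, a vomeronasal receptor, at 119-fold, and with Barx1.

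The 12 genes with the largest difference downward ran from 60.8-fold to 119-fold. Med11, Pramel13, Exoc6, Ntf3 and Mrpl37 were at -6.34 to -6.06 in mutant interzone. The lowest level well above background on that array was -6.51, so these folds too rest on signals near the floor. Ntf3, the neurotrophin that supports proprioceptive axons, was at -6.12 in mutant interzone and 0.78 in mutant interdigital tissue, 119-fold lower, with a control difference of -2.24. Krt9, the keratin of palm and sole skin, was at -3.40 and 3.32, 105-fold lower. Hs2st1, a heparan sulfate sulfotransferase, was 103-fold lower, and Exoc6 was 60.8-fold lower. Many of the others code for proteins that most cells use. They were Med11, a Mediator subunit, at 98.9-fold, Dph5 at 89.9-fold, Ttc27 at 80.0-fold, Coa4 at 77.2-fold, the mitochondrial ribosome gene Mrpl37 at 70.2-fold, the RNase P gene Rpp14 at 69.6-fold and the TFIID subunit gene Taf7 at 61.3-fold, with a second probe of Taf7 at -2.66. Pramel13 was 74.8-fold lower. Med11, Mrpl37, Rpp14 and Taf7 were each below -4 in mutant interzone and above -2 on every other array, Med11 in control growth plate excepted at -7.17.

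Genes seen on one mutant array only included the following brightest cases. In mutant interzone these were Fam221b at least 1137-fold higher, Ibsp, Alb, the liver plasma protein, at least 393-fold, Nsun7 at least 364-fold and Zfp641 at least 309-fold higher. In mutant interdigital tissue they were Prss12 at least 219-fold, Olah at least 182-fold, Rev1 and Tbl1xr1 at least 162-fold and Ppil3 at least 119-fold higher than in mutant interzone. Prss12, Rev1 and Tbl1xr1 differed less than 2-fold between the control tissues, and Olah was not well above background on any array but the mutant interdigital one.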

How the data were processed

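Per the file headers, the authors' scanner files came from Agilent Feature Extraction 9.5.1.1 and hold 1-colour intensity values, with processed signals from which a spatial background surface was subtracted. The deposited value table holds a linear ratio, each processed signal divided by its array's median, as found by setting it against the scanner values. Each of its columns has a median of 1.0. Control spots and outlier spots were left out, spots of a probe were averaged, and levels were log2 processed intensity minus the array's 75th percentile. No spot was saturated.

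Probes were named through RefSeq names (GRCm38.p6): 22967 by accession, 6582 by symbol and 3073 by older symbol. Another 157 matched several genes and 8395 none, and these were not used. A gene's probe was the one with the highest mean over the arrays, among probes with a value on all of them. A gene counted as measured in a pair when at least 0.5 of the probe's spots were marked well above background on both arrays. A gene dim on 1 array got a bound, "at least N-fold", against the higher of its own signal and the lowest signal well above background there. The 37 lists hold 822 entries, may share genes, and were chosen, like the comparison, with earlier results of these data known. Named beside list members were the 12 largest differences in each direction (level on the brighter array no lower than the median of its detected probes, other probes going the same way, no clones or predicted genes) and the 5 brightest bounds. The count and list scripts were checked on simulated data. Tools were Python 3 with pandas and, for normexp (offset 50) and quantile normalization, R with limma. The alternatives were those 2, a percentile over probes detected on all arrays, the deposited ratios, other choices of probe, no filter on dim probes, a filter at the median of detected probes, a 4-fold threshold and, chosen after seeing the data, the second brightest probe. Some members of the lists are counted in them and not reported here by name.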

Additional observations from a re-analysis of the deposited data

Results flagged for a closer look

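Among the 194 genes named in the report, 40 were at least 2-fold apart in the mutant pair and at least 2-fold apart the other way in the control pair. Of all 16494 genes measured in both pairs, 511 were higher in mutant and lower in control interzone and 529 the reverse. Another 549 were higher and 662 lower in both pairs. Named genes were picked from the lists or for large differences, so the 40 are not a rate that sets them apart from other genes. With 1 array per tissue and genotype the difference between the pairs was not tested, and no array was compared with a replicate. In each case the first value is the log2 difference, interzone minus interdigital tissue, in mutants and the second is that in controls.

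Higher in mutant interzone and lower in control interzone were 20 genes: Actc1 at 1.94 and -2.88, Acvrl1 at 3.72 and -5.73, Adgre1 at 2.22 and -1.03, Aldh1a2 at 1.74 and -1.44 and C1qa at 1.1 and -3.0. Also in this set were Dusp6 at 1.11 and -1.52, Ebf1 at 1.41 and -4.19, Heyl at 1.85 and -1.96, Igf1 at 1.30 and -2.61 and Krt8 at 2.10 and -1.70. Also in this set were Lfng at 3.31 and -1.65, Mylpf at 2.30 and -2.19, Myog at 2.20 and -1.94, Notch4 at 5.07 and -2.12 and Pmaip1 at 2.35 and -3.41. Also in this set were Ppl at 1.81 and -1.21, Sox17 at 4.37 and -2.37, Tnni1 at 3.84 and -1.19, Tnnt1 at 2.62 and -4.48 and Xist at 1.11 and -1.12. The mutant value of Xist is one between 2 dim signals, at -5.56 in interzone and -6.67 in interdigital tissue. The lowest levels well above background on these arrays were -6.51 and -7.79.

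Lower in mutant interzone and higher in control interzone were 20 genes: Acan at -1.1 and 1.05, Bub1b at -1.95 and 1.5, Coa4 at -6.27 and 1.5, Cx3cl1 at -2.39 and 1.04 and Cxcl14 at -1.99 and 1.66. The set also held Epha7 at -5.55 and 1.37, Etv5 at -3.55 and 1.21, Fgf18 at -2.49 and 1.39, Fgfrl1 at -5.83 and 1.56 and Has2 at -2.28 and 2.08. The set also held Htra1 at -3.48 and 2.39, Inhba at -5.05 and 3.62, Lamb3 at -3.94 and 2.57, Lef1 at -1.37 and 2.91 and Lhx9 at -2.77 and 1.94. The set also held Lmx1b at -2.16 and 3.38, Matn1 at -3.73 and 1.48, Sema3e at -4.07 and 2.08, Tbx18 at -2.15 and 1.70 and Wif1 at -2.82 and 2.34.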

How the results depend on the processing

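No paired analysis was possible because each tissue had 1 array, and for the same reason no array could be left out. The 75th percentile over probes detected on all arrays, the mean over probes and the lack of a filter on dim probes left every count of genes past 2-fold within 1.5 times its value. Against 3041 genes higher and 3048 lower, normexp gave 5730 and 1514, the deposited ratios gave 4568 higher, genes at or above the median of detected probes gave 1975 higher, and a 4-fold threshold gave 953 and 1321. The second brightest probe, an alternative chosen after seeing the data, gave 1383 and 1777. In the control pair the 4-fold threshold gave 817 and 977, the second probe 1099 higher and the brighter genes 1572 lower. The counts at the second probe and among brighter genes come from fewer genes than the 16789 of the main setting. Both probes were well above background on both mutant arrays for 6541 genes. These counts are therefore not like for like with 3041 and 3048. The share of higher genes, 49.9%, was 79.1% with normexp, 66.5% with the deposited ratios and 60.5% with quantile normalization. The median over all genes, 0.12, was 0.43, 0.43 and 0.22 under these and -0.10 at the second probe.

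With normexp the list median was 0.72 for nerve, 0.34 for Notch, 1.23 for chemokines and 0.29 for limb patterning. Among brighter genes it was 0.076 for Notch and -1.02 for chemokines. At the second probe it was 0.37 for interzone and joint, 1.28 for muscle, 0.35 for BMP, 0.53 for Notch, -0.47 for retinoic acid, -1.04 for apoptosis, -0.40 for immediate early genes, -0.50 for interferon response, -1.98 for posterior Hox and -1.16 for guidance. The cause of these shifts was not tested.

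Single genes past 2-fold turned direction with normexp at Aurkb (0.52), Bmp5 (0.40), Bub1 (0.16), Dll1 (0.39), Gli3 (0.78), Lhx9 (0.0088), Prdm1 (1.61), Spi1 (0.98) and Thrb (-2.79). At the second probe they were Adamts9 (1.31), Bmp7 (0.58), Cdk1 (6.05), Fbln5 (0.73), Has2 (0.60), Smad1 (0.35, also with the brightest probe on the compared arrays), Sox10 (3.06) and Sox5 (-0.11), and with the mean over probes Cdk1 (2.13) and Sox10 (0.46). Of the 63 genes named that had a second measured probe, 16 changed sign there, these 8 among them, the other sign changes being of genes within 2-fold. Of 177 named genes, normexp changed the sign of 16 and moved 66 by over 1.5-fold beside the 9 listed, and the mean over probes moved 33. Precision is limited by 1 array a side and, for dim probes, by the signal over background.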
